A study of Mus musculus with 18 samples.

Results

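Organoids grown from the proximal mouse colon were compared between differentiation medium and control medium by RNA sequencing. The comparison used 6 of the 18 libraries of the series, 3 from each of 2 groups, and the 11479 genes (of 56748 in the table) that reached 1 FPKM in at least 3 of the 6 libraries. FPKM counts fragments per kilobase of transcript and per unit of library size, so levels are given per transcript length. The library size behind the deposited values differed from the summed reads, as given below. Of the genes tested, 10256 were protein-coding and 408 were long non-coding RNAs.

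Control organoids were kept in a medium labelled ENR + WntCM, which the submitters describe as proliferative and as containing Wnt3a conditioned medium. The other group was moved to differentiation media 3 days after passaging. What that medium held, and the strain, genotype, sex and age of the mice, are not stated. Both groups came from the same proximal segment, and polyadenylated RNA was sequenced. The labels do not say whether the 3 replicates of a group came from separate animals or from separate wells of 1 culture, so the p-values measure the spread between these libraries, which may be technical. The matching mid and distal colon organoids, 6 libraries each, were used only where the size of the proximal response was compared between regions.

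The colonic epithelium is renewed from stem cells at the base of crypts, where Wnt ligands and R-spondins keep cells dividing. Cells that leave this zone stop cycling and become absorptive colonocytes, which take up salt, water and short-chain fatty acids, or secretory cells such as the mucus-making goblet cells. In organoid culture the balance between both states follows the growth factors in the medium. The proximal colon normally lies next to the caecum and receives the fluid contents of the small intestine.

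Library depth, as reads recovered from the table and summed over genes, ranged from 13090322 to 19668665. Mitochondrially encoded genes held 2.01% to 2.09% of reads in control medium and 2.46% to 2.79% in differentiation medium. All 9 epithelial markers were detected in every library, 6 of them rose and 0 fell (1 fell on summed reads or by voom), and their summed level was 6939 to 8657 FPKM in control medium and 11160 to 13930 in differentiation medium. Epcam, a cell adhesion molecule of epithelia, was at 372, 336 and 351 FPKM in control replicates 1, 2 and 3 and 572, 998 and 871 in differentiation replicates 1, 2 and 3. Every list of values below follows this order, with control libraries before differentiation libraries.

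Markers of other cell types were at or near 0. None of the 10 fibroblast, 5 endothelial and 9 neural and muscle markers reached the filter, and 1 of 9 immune markers did. The fibroblast markers Col1a2, Col3a1, Lum and Thy1 were listed at 0 in all 6 libraries, and the fibroblast sum was 0.11 to 0.403 FPKM in control medium and 0.408 to 1.48 in differentiation medium. Pdgfrb made up most of the latter, with 0.0704, 0.144 and 0.153 FPKM in control and 0.242, 1.35 and 0.7 in differentiation libraries. The immune markers Cd3e, Lyz2 and Adgre1 were listed at 0 in all 6 libraries, and the immune sum was 2.23 to 4.08 FPKM in control medium and 1.46 to 1.73 in differentiation medium. Cd68, a lysosomal glycoprotein of macrophages, held most of that sum and its groups overlapped, at 3.43, 1.55 and 1.52 versus 1.2, 1.59 and 1.39 FPKM. The endothelial sum was 0.176 to 0.215 FPKM in control medium and 0.188 to 0.284 in differentiation medium, and the neural and muscle sum was 0.166 to 0.241 FPKM in control medium and 0.0977 to 0.366 in differentiation medium. Their part in the results was not tested.

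Differentiation replicate 1 stood apart from its group. On the first principal component of the 6 libraries (83.6% of the variance) it lay at 25.43, against 65.55 and 58.31 for differentiation replicates 2 and 3 and between -54.17 and -41.91 for the controls. The Pearson correlation over genes was 0.989 between differentiation replicates 2 and 3, and 0.95 and 0.962 between replicate 1 and each of them. Control replicate 1 also differed from its group, with correlations of 0.969 and 0.965 to the other controls, which correlated with each other at 0.99. The counts of the gene lists are therefore given without either library as well.

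In the comparison of all 6 libraries 3150 genes were higher and 2776 lower in differentiation medium, 27.4% and 24.2% of the genes tested (limma, Benjamini-Hochberg adjusted p under 0.05). Without differentiation replicate 1 the calls were 3701 higher and 3525 lower, 32.2% and 30.7%. Of the 5926 genes called with all libraries, 5807 had the same call without that replicate, 119 were not called there and 0 changed direction. A log2 fold change of at least 1 was seen in 1268 of the higher and 966 of the lower genes. All 3 differentiation libraries lay above all 3 controls for 3715 genes, 32.4% of those tested, and below them for 3529 genes, 30.7%. Leaving out 1 other library lowered the number of lower genes to 1580 (control replicate 2), 1726 (control replicate 3) or 1513 (differentiation replicate 3). These shares are the background for every gene list below.

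The direction of small changes depended on the scale. The library size behind the deposited FPKM was 1.188, 1.168 and 1.156 times the summed reads in control replicates 1, 2 and 3. In differentiation replicates 1, 2 and 3 it was 1.043, 0.872 and 0.902 times. Why these factors differ was not tested. The deposited FPKM values centre the median gene near 0 (median log2 fold change -0.012), while scaling to each library's summed reads moved that median to -0.27 and gave 2085 higher and 4420 lower genes. The share of higher genes among those called was then 32.1% instead of 53.2%. Changes below are relative to the deposited scale, on log2(FPKM + 1), which understates the change of genes near 0. Each gene list is given by its members tested and by the numbers that rose and fell, in that order. In parentheses follow the members listed and the numbers without differentiation replicate 1, without control replicate 1 and on summed reads, and those of any other left-out library, the fit over all 18 libraries, voom on recovered reads or no filter where a number moved by more than 1.5 times and by at least 2 genes. A member under 1 FPKM in every library of 1 group entered the test through the other group alone, so its direction was fixed by the filter and lends no support to the count. The same holds for every tested gene below with all values of 1 group under 1 FPKM, also where it is not repeated. The parentheses give how many such members a list had, and over all genes there were 282 under 1 FPKM in every control and 287 in every differentiation library. A listed member that was not tested stayed under the filter or was not analysed. In lists with 0 calls in 1 direction the number was also 0 at an unadjusted p under 0.05 and by voom on recovered reads, except where given.

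Genes of the crypt base fell in differentiation medium. Of 20 crypt stem cell and Wnt target genes tested, 3 rose and 15 fell (24 listed, 4 under 1 FPKM in every differentiation library, 3 and 15 without differentiation replicate 1, 2 and 14 without control replicate 1, 1 and 16 on summed reads). Their median log2 fold change was -1.87. Sox9, a transcription factor of stem and progenitor cells (ENSMUSG00000000567, chromosome 11, 112673050 to 112678586, mm39), measured 36.7, 44.4 and 45.7 FPKM in control medium and 4.39, 0.637 and 0.886 in differentiation medium. The groups did not overlap, and differentiation replicate 1 kept the highest level of its group. The log2 fold change was -4.08 ± 0.43 (SE, adjusted p = 0.00098), and -4.62 without that replicate.

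Axin2, a feedback inhibitor that Wnt signalling itself switches on, was at 18.4, 18.8 and 18 FPKM in control medium and 3.48, 0.464 and 0.768 after differentiation. The controls lay close together and the differentiation libraries far below them, with a log2 fold change of -3.10 ± 0.39 (SE, adjusted p = 0.00174). Ascl2, a stem cell transcription factor, went from 8.36, 6.04 and 4.6 to 0.334, 0.0492 and 0 FPKM, and Lgr5, the R-spondin receptor that marks stem cells, from 3.39, 2.92 and 3 to 0.0704, 0 and 0. Lgr5 was thus listed at 0 in differentiation replicates 2 and 3, while replicate 1 still held a trace. Myc, a driver of growth, fell by 2.59 on the log2 scale, from 88.5, 115 and 109 to 28.3, 12.5 and 12.3 FPKM. Cd44, a receptor for hyaluronan on crypt cells, fell from 36.6, 56.9 and 56.9 to 9.29, 3.48 and 3.69 FPKM. The 3 members that rose were Lgr4, Fzd5 and Prom1, none of them restricted to stem cells, at log2 fold changes of 1.0, 0.98 and 0.84.

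**Figure D1:**
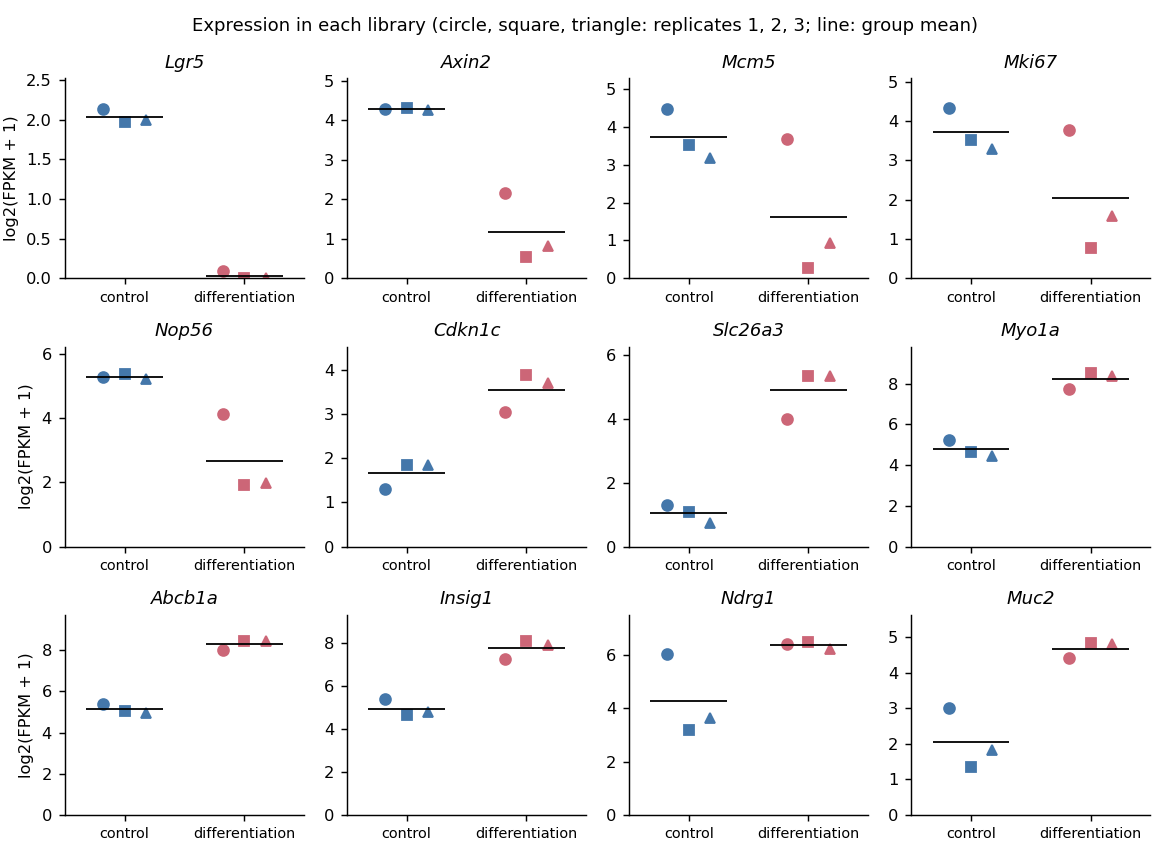
Level of 12 genes in the 6 proximal libraries, as log2(FPKM + 1) on the vertical axis of each panel, with control medium on the left and differentiation medium on the right. Circles, squares and triangles are replicates 1, 2 and 3, and the line is the group mean. Lgr5 and Axin2 are low in all 3 differentiation libraries, while Mcm5 and Mki67 are low in replicates 2 and 3 and inside the control range in replicate 1.

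Replication genes were lower than in the controls in differentiation replicates 2 and 3, while replicate 1 lay in or near the control range. With all 6 libraries 0 of 28 tested members rose and 6 fell (29 listed, 0 and 24 without differentiation replicate 1, 2 and 0 without control replicate 1, 0 and 10 on summed reads, 0 and 1 without control replicate 2 or differentiation replicate 2 or with no filter, 0 and 2 without control replicate 3, 0 and 0 without differentiation replicate 3, 0 and 15 in the fit over all 18 libraries or by voom). The median log2 fold change was -0.81 with differentiation replicate 1 and -1.26 without it. Of 25 mitosis genes tested (27 listed) 0 passed in limma with all libraries, 1 was lower at an unadjusted p under 0.05, and 7 were lower by voom on recovered reads and 14 in the fit over all 18 libraries. Without differentiation replicate 1 all 25 fell. With a replicate block, which treats same-numbered libraries as pairs, 20 of 28 replication and 20 of 25 mitosis genes were lower. That library lay above both other differentiation libraries for 28 of 28 replication and 25 of 25 mitosis genes.

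Short stretches of the promoters of 6 of these genes are printed because they hold the E2F and CHR elements, which are known from the promoters of replication and mitosis genes. They come from RefSeq promoters (GRCm38.p6, 250 bases before to 50 after the annotated start) and read 5′ to 3′ on the gene's strand. In Mcm5, Mcm6 and Uhrf1 the capitals mark the E2F motif TTTCGCGC or its reverse complement, and in Mki67, Cdk1 and Top2a they mark the CHR motif TTTGAA, of which Mki67 has a second copy in lower case.
Mcm5: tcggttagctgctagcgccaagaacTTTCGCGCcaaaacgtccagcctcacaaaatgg
Mcm6: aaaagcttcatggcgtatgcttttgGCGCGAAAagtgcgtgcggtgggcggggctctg
Uhrf1: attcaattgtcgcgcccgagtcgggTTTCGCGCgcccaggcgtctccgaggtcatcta
Mki67: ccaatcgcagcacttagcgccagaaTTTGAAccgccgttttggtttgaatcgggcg
Cdk1: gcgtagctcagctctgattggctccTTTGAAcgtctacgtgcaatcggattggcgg
Top2a: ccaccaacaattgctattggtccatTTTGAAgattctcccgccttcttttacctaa

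These stretches lie at chr8:75109331-75109388 on the plus strand (Mcm5), chr1:128359779-128359836 on the minus strand (Mcm6) and chr17:56304103-56304160 on the plus strand (Uhrf1). The others lie at chr7:135716465-135716520 (Mki67), chr10:69352953-69353008 (Cdk1) and chr11:99024338-99024393 (Top2a), all on the minus strand. Counted from the annotated start, the capitals span -153 to -146 in Mcm5, -106 to -99 in Mcm6, -185 to -178 in Uhrf1, -116 to -111 in Mki67, -71 to -66 in Cdk1 and -179 to -174 in Top2a. Shares count gene symbols, and a gene with more than 1 annotated start held a motif if any of its promoters did. Searched on both strands, TTTCGCGC was found for 6 of 24 replication genes (25%), Mcm5, Mcm6, Mcm7, Rfc3, Lig1 and Uhrf1. It was found for 0.37% of all 27025 gene symbols with a promoter and for 0.83% of the 8462 tested. TTTGGCGC was found for 5 of 24 replication genes (20.8%), against 0.58% and 1.17%, and overlapped the first motif in Mcm5 and Mcm6. TTTGAA was found for 17 of 23 mitosis genes (73.9%), against 20.2% of all and 13.9% of tested genes. A match describes the letters only.

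The 6 genes had the following levels. Mcm5, a subunit of the helicase that unwinds DNA for replication (mm39 chromosome 8, 75836197 to 75855067), was at 21.4, 10.6 and 8.02 FPKM in control medium and 11.8, 0.2 and 0.917 in differentiation medium. Its relative Mcm6 (mm39 chromosome 1, 128259327 to 128287401) was at 22.6, 14.5 and 12.9 versus 12.1, 0.975 and 1.8 FPKM. In both, differentiation replicates 2 and 3 lay far below every control, whereas replicate 1 lay inside the control range of Mcm5 and just under that of Mcm6. With all libraries the log2 fold change of Mcm5 was -2.10 ± 0.86 (SE, adjusted p = 0.0786), and without replicate 1 it was -3.13 (adjusted p = 0.00143). For Mcm6 the values were -2.04 ± 0.67 (SE, adjusted p = 0.04) and -2.87 (adjusted p = 0.00044).

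Uhrf1, which keeps DNA methylation through replication, was at 19.4, 11.7 and 7.86 FPKM in control and 9.73, 0.412 and 0.503 in differentiation libraries. Mki67, a protein of dividing chromosomes, was at 19.3, 10.4 and 8.81 versus 12.6, 0.714 and 2.03 FPKM. Both again had replicate 1 inside the control range, and their log2 fold changes were -2.22 (adjusted p = 0.0515) and -1.67 (adjusted p = 0.0945) with it and -3.18 (adjusted p = 0.000645) and -2.53 (adjusted p = 0.00223) without it. Cdk1, the kinase that starts mitosis, was at 10.6, 4.79 and 4.02 versus 8.18, 2.06 and 2.56 FPKM. Top2a, which untangles chromosomes, was at 20.4, 9.93 and 7.45 versus 12.9, 1.39 and 1.98 FPKM. Among the replication genes Pcna, the sliding clamp of the polymerases, did not follow, with 45.4, 23.5 and 23.2 versus 41.6, 38.4 and 34.7 FPKM and a log2 fold change of 0.37 (adjusted p = 0.26). Its differentiation libraries lay inside the control range, between control replicate 1 and the other controls.

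Control replicate 1 was the highest of the 3 controls for 28 of 28 replication and 25 of 25 mitosis genes, by a median of 1.10 (log2) over the other controls for mitosis. Without it, 2 replication genes rose and 0 fell, and 0 mitosis genes passed. Both replicates numbered 1 held the highest proliferation levels of their groups. In bulk RNA, fewer dividing cells and less of these transcripts per cell cannot be told apart.

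Differentiation replicate 1 did not lag evenly. For each gene that moved by at least 1 (log2) in replicates 2 and 3, the position of replicate 1 was expressed as a percent of the way from the control mean to the mean of replicates 2 and 3, a measure added after the data had been seen. Over 3033 such genes the median was 60.9% (quartiles 40.9% to 78.8%), with 68.5% for the 1582 genes that went up and 47.4% for the 1451 that went down. Replicate 1 lay between the control mean and the other replicates for 2651 genes, past them for 241 and on the opposite side of the control mean for 141. The median was 83.7% for cholesterol genes, 84.5% for brush border hydrolases, 85.5% for goblet cell genes and 76.3% for colonocyte genes. It was 65.6% for crypt and Wnt genes and 37.4% for ribosome biogenesis (quartiles 34.1% to 41.8%). It was 4.96% for replication genes (quartiles -9.99% to 13.1%) and -10.4% for mitosis genes (quartiles -35.2% to -6%). These positions use the libraries that define the groups and are a description, with no test.

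**Figure D2:**
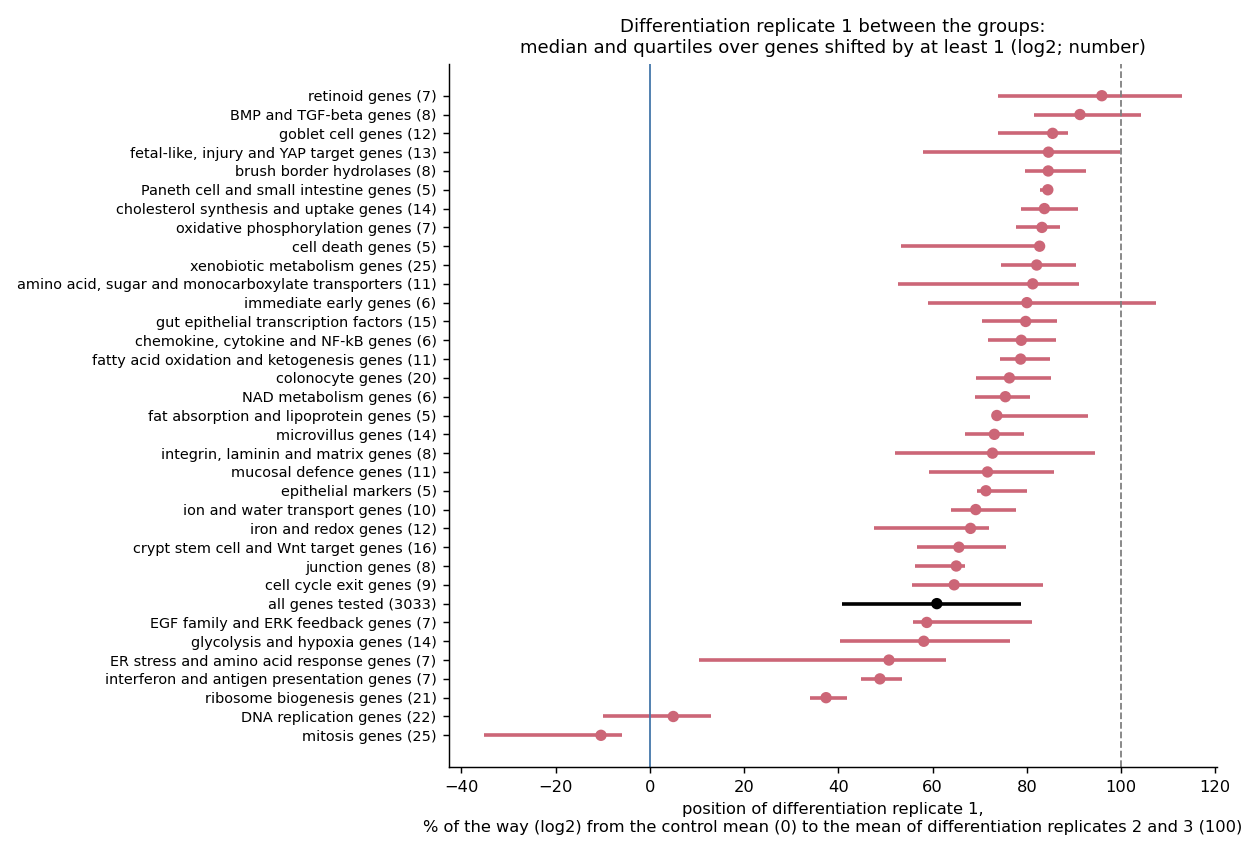
Position of differentiation replicate 1 between the control mean (0%) and the mean of differentiation replicates 2 and 3 (100%), on the horizontal axis in percent, for genes that moved by at least 1 on the log2 scale. Points are medians and bars the quartiles of each list with at least 5 such genes, with all 3033 genes in black. Mitosis and replication genes sit near 0%, ribosome biogenesis near 37.4%, and cholesterol, brush border and goblet genes above 80%.

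In all, 532 protein-coding genes with a mean of at least 10 FPKM in a group had differentiation replicate 1 inside the control range and replicates 2 and 3 together outside it, 342 above and 190 below. The 5 with the largest rise were Ero1a, Bnip3, Nbl1, Car9 and P4ha1, of which Bnip3, Car9 and P4ha1 belong to the glycolysis and hypoxia list. On summed reads these 5 no longer passed in the comparison of all 6 libraries. Ero1a, an oxidase of the endoplasmic reticulum, was at 71.3, 17.6 and 21.3 FPKM in control and 56.5, 134 and 128 in differentiation libraries. Here control replicate 1 was high as well, and only differentiation replicates 2 and 3 exceeded it. The 5 with the largest fall were Uhrf1, Mcm5, Mcm3, Mcm4 and Mki67. Among genes of any kind, protein-coding or not, with a mean of at least 10 FPKM in a group, 4692 had differentiation libraries close together. All 3 of these libraries lay within 0.5 (log2) of their mean. A gene can belong to both sets, so their counts are not opposites.

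Genes of the ribosome biogenesis list, which also holds the polyamine enzymes Srm and Odc1, fell. Differentiation replicate 1 lay above both other differentiation libraries for all 21 members and inside the control range for 1, Odc1. Of 21 ribosome biogenesis genes tested 0 rose and 20 fell (0 and 21 without differentiation replicate 1 or on summed reads, 0 and 19 without control replicate 1), with a median log2 fold change of -1.76. Nop56, a core protein of the particles that methylate ribosomal RNA, was at 37.7, 40.1 and 36.5 FPKM in control and 16.7, 2.79 and 2.93 in differentiation libraries. Its controls lay within a narrow range, and replicate 1 stood between them and replicates 2 and 3. The log2 fold change was -2.61 ± 0.57 (SE, adjusted p = 0.01), and -3.34 without replicate 1. Srm, which makes the polyamine spermidine, showed the same order with 31.4, 31.2 and 27.7 versus 19.5, 1.9 and 2.64 FPKM. Ncl, the main protein of the nucleolus, went from 69.2, 65.5 and 62.6 to 34.5, 12.8 and 14.5 FPKM. Npm1, a nucleolar chaperone, went from 205, 227 and 214 to 129.9, 71.9 and 77 FPKM, the smallest change of these, at -1.25 ± 0.23. Odc1, the first enzyme of polyamine synthesis, was the member not called, with 64.7, 60.9 and 52.3 versus 54, 24 and 31.4 FPKM and a log2 fold change of -0.76 (adjusted p = 0.0576).

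Cell cycle exit genes rose. Of 15 tested 10 rose and 1 fell (11 and 1 without differentiation replicate 1, 8 and 2 without control replicate 1 or on summed reads, 6 and 1 without differentiation replicate 3), with a median of 0.99. Mxd1, which competes with Myc for its partner Max, rose from 24, 16.9 and 19.4 to 73.2, 103 and 86.8 FPKM, a log2 fold change of 2.07 ± 0.18 (SE, adjusted p = 0.000567). The cyclin-dependent kinase inhibitor Cdkn1c rose from 1.48, 2.56 and 2.61 to 7.21, 13.8 and 11.9 FPKM, and its relative Cdkn2d from 5.27, 2.47 and 3.49 to 12.2, 17 and 13.3. The differentiation libraries lay above all controls for each, replicate 1 included. Cdkn1a and Cdkn2b rose by 1.11 and 1.40 on the log2 scale. Cdkn1b, at 13.8, 10.3 and 10.6 versus 16.8, 31.5 and 25.8 FPKM, moved mainly in replicates 2 and 3 and passed with a log2 fold change of 1.0 (adjusted p = 0.0128). Plk2, a stress-induced kinase and the member that fell, changed by -1.16.

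Transcription factors of the gut epithelium mostly rose. Of 25 tested 19 rose and 3 fell (27 listed, 1 under 1 FPKM in every control, 19 and 4 without differentiation replicate 1, 18 and 2 without control replicate 1, 14 and 4 on summed reads, 16 and 5 by voom), with a median of 1.03. Nr1h4, the bile acid receptor FXR, rose from 10.2, 5.28 and 3.22 to 81.1, 62.1 and 73.1 FPKM, a log2 fold change of 3.44 ± 0.34 (SE, adjusted p = 0.000801). Vdr, the vitamin D receptor, rose from 4.75, 4.32 and 3.54 to 31.9, 50.6 and 39.3 FPKM. Nr3c2, the receptor for aldosterone, rose from 3.28, 2.44 and 2.19 to 12.6, 21.9 and 20.8 FPKM. In all 3 the groups were far apart, and for Nr1h4 replicate 1 was the highest library. Hnf4a and Hnf4g, which activate enterocyte genes, rose by 1.89 ± 0.24 and 2.48 ± 0.17. Hnf4a was at 119, 70.2 and 69.8 versus 258, 353 and 334 FPKM, with control replicate 1 above its group. Klf4, a factor of non-dividing surface cells, rose from 60.8, 31.1 and 32 to 116, 164 and 151 FPKM. Foxa1, Foxa3 and Grhl2 were the members that fell, by 0.66, 1.26 and 0.32 on the log2 scale.

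Across all transcription factors that the deposited table assigns to a family, 125 of 707 tested rose and 214 fell (159 and 246 without differentiation replicate 1), with a median log2 fold change of -0.17. These counts were added after the data had been seen. The C2H2 zinc finger family had 21 rising and 90 falling members of 301, and the ZBTB family 4 and 17 of 37 (5 and 18 without that replicate). The basic leucine zipper family had 14 rising and 9 falling of 41 (16 and 11), and the bHLH family 15 and 11 of 40, the latter with equal counts without the replicate. Without differentiation replicate 1, 40 zinc finger genes rose and 105 fell.

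Genes of mature colonocytes rose. Of 22 tested 21 rose and 0 fell (25 listed, 2 under 1 FPKM in every control, 22 and 0 without differentiation replicate 1, 21 and 0 without control replicate 1 or on summed reads), with a median log2 fold change of 3.23. Slc26a3, the chloride-bicarbonate exchanger of the colon surface (ENSMUSG00000001225, chromosome 12, 31440870 to 31523916, mm39), was at 1.46, 1.13 and 0.675 FPKM in control and 15.1, 39.3 and 39.5 in differentiation libraries. Replicate 1 was the lowest of the differentiation libraries and far above the highest control, for a log2 fold change of 3.85 ± 0.37 (SE, adjusted p = 0.000796). Krt20, a keratin of surface cells, rose from 56.5, 41.3 and 34.3 to 519, 827 and 743 FPKM. Lypd8, a secreted protein that keeps flagellated bacteria away from the epithelium, rose from 284, 192 and 192 to 1238, 2962 and 2425 FPKM. Fabp2, a fatty acid carrier, rose from 22.7, 26.4 and 21.2 to 103, 196 and 222 FPKM. Replicate 1 was the lowest of the 3 differentiation libraries for 22 of 22 tested colonocyte genes. Car2, a carbonic anhydrase, was the member not called, at 246, 219 and 214 versus 234, 384 and 388 FPKM, and passed without replicate 1 (log2 fold change 0.77, adjusted p = 0.00112).

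Car1, the main carbonic anhydrase of the colon, had the highest level of the list in differentiation medium, at 1170, 371 and 247 FPKM in control and 12430, 22120 and 22390 in differentiation libraries. Control replicate 1 held several times the level of the other controls and none of them came near the differentiation libraries. Among the members under the filter Car4, a membrane-bound carbonic anhydrase, was listed at 0, 0 and 0 in control and at 0.429, 1.67 and 0.889 FPKM in differentiation libraries, and the water channel Aqp8 at 0, 0.527 and 0.302 versus 0.191, 0.404 and 0.606.

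The 12 highest log2 fold changes among called protein-coding genes with separate groups and a mean of at least 5 FPKM in 1 group belonged to Zg16, Tmigd1, Cyp2c55, Guca2a, Slc3a1, 1810065E05Rik, Dpep1, Ces2a, Prss30, Car1, Gm5485 and Prap1. They ran from 5.17 for Prap1, a secreted protein of the gut lining, to 7.02 for Zg16, a lectin of the mucus layer. Zg16 was at 6.7, 1.32 and 0.57 FPKM in control and 243, 507 and 489.8 in differentiation libraries. Its controls differed widely among themselves, with control replicate 1 highest, and the lowest differentiation library was still far above them. Tmigd1, an adhesion protein of the brush border, was steadier, at 2.88, 2.04 and 1.6 versus 194, 339 and 301 FPKM (log2 fold change 6.44 ± 0.24 SE, adjusted p = 9.43e-05). Guca2a, the hormone guanylin that controls salt and water secretion, was at 34.4, 30.5 and 11.6 versus 990.1, 1367 and 1391 FPKM. Prss30, a serine protease, was at 1.17, 0.515 and 0.123 versus 43.9, 91.7 and 68.2 FPKM. Slc3a1 was under 1 FPKM in every control, so the filter fixed its direction.

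The 12 lowest by the same rule belonged to Ccn2, Pmepa1, P2rx2, Stra6, Fn1, Gabrp, Sox9, Dok2, Lor, Acsbg1, Aldh1a3 and Spp1, from -5.20 to -3.59. P2rx2, an ion channel opened by ATP, was at 16.6, 58.2 and 65.2 FPKM in control and 0.538, 0.465 and 0.197 in differentiation libraries. Gabrp, a subunit of a GABA receptor, was at 32.2, 49.3 and 67.4 versus 2.68, 1.44 and 1 FPKM. Lor, the cornified envelope protein loricrin of skin, was at 48.1, 126 and 136 versus 12.4, 2.38 and 4.82 FPKM. Control replicate 1 was the lowest control for each of these 3 genes and the groups were well separated. P2rx2 and Stra6 were under 1 FPKM in every differentiation library, so the filter fixed their direction and the separation of their groups. Dok2, an adaptor of tyrosine kinase signalling, and Acsbg1, a fatty acid activating enzyme, fell by 3.97 and 3.65 on the log2 scale.

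Every microvillus gene tested rose, 17 of 17 (18 listed, 1 under 1 FPKM in every control, 17 and 0 without differentiation replicate 1 or control replicate 1 or on summed reads), with a median of 1.90. Myo1a, the motor that ties the actin core of the microvillus to its membrane, was at 36.6, 24.3 and 21.1 FPKM in control and 209.9, 368 and 336 in differentiation libraries, a log2 fold change of 3.43 ± 0.28 (SE, adjusted p = 0.000502). Cdhr5, a cadherin that links neighbouring microvilli, rose from 62, 38.6 and 37.6 to 292, 469.7 and 411 FPKM. Espn, an actin bundling protein, rose from 0.179, 0.106 and 0.137 to 4.61, 10.6 and 7.93 FPKM, from close to 0. The groups were separate for all 3, with replicate 1 between the controls and the other differentiation libraries. Vil1, the bundling protein villin, and Ezr, which links actin to the membrane, were already abundant in control medium and rose by 1.34 ± 0.12 and 0.79 ± 0.20.

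The brush border hydrolases tested also all rose, 8 of 8 (14 listed, 5 under 1 FPKM in every control, 8 and 0 without differentiation replicate 1 or control replicate 1 or on summed reads), and their median log2 fold change was 3.57. Naaladl1, a dipeptidase, was at 0.697, 0.483 and 0.432 FPKM in control and 37.3, 38.5 and 20.9 in differentiation libraries. Alpi, the intestinal alkaline phosphatase, rose from 14.6, 5.41 and 5.6 to 100, 182 and 137 FPKM. Replicate 1 was not the lowest differentiation library for Naaladl1, unlike Alpi. Anpep, aminopeptidase N, was near 0 in control libraries and at 1.91, 6.29 and 1.89 FPKM after differentiation, a log2 fold change of 1.95 ± 0.36 (SE, adjusted p = 0.0057). A member that is near 0 in control medium can pass the filter only through the differentiation libraries, as 5 of these 8 did, so the 8 of 8 says nothing about the other 6.

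Transport genes moved in both directions. Of 14 ion and water transport genes 6 rose and 7 fell (19 listed, 1 under 1 FPKM in every control, 1 under 1 FPKM in every differentiation library, 7 and 7 without differentiation replicate 1, 6 and 5 without control replicate 1, 5 and 7 on summed reads), with a median of -0.10. Those that rose included the sodium-proton exchangers Slc9a2 and Slc9a3, the sodium pump subunit Atp1b1, the ubiquitin ligase Nedd4l and the sodium channel subunit Scnn1a. Those that fell were the secretory genes Cftr, Slc12a2, Kcne3, Kcnn4 and Kcnq1 and the water channels Aqp1 and Aqp4. Slc12a2, which loads chloride into cells for secretion, was at 44.6, 49.2 and 53.2 FPKM in control and 12.4, 5.03 and 5.87 in differentiation libraries, a log2 fold change of -2.60 ± 0.29 (SE, adjusted p = 0.0012). Cftr, the chloride channel of the luminal membrane, was at 15.4, 18.1 and 17.3 versus 9.96, 3.09 and 6.23 FPKM, with no overlap and replicate 1 nearest the controls (log2 fold change -1.38 ± 0.33 SE, adjusted p = 0.0138). Kcne3, a subunit of the basolateral potassium channel, was at 36.3, 15.5 and 14.5 versus 11, 0.942 and 1.2 FPKM. Its replicate 1 lay close under the controls and the others near 0. Scnn1a was at 11.3, 11 and 10.1 versus 19.8, 18.2 and 15.9 FPKM, and its partner subunits Scnn1b and Scnn1g stayed under the filter. On summed reads Scnn1a no longer passed.

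Of 14 amino acid, sugar and monocarboxylate transporters 8 rose and 3 fell (20 listed, 3 under 1 FPKM in every control, 8 and 3 without differentiation replicate 1 or control replicate 1, 8 and 4 on summed reads), with a median of 1.14. Slc15a1, the peptide transporter PepT1, had 0 reads in all 3 control libraries and 1600 in the differentiation libraries, 5.06, 10.4 and 6.4 FPKM in replicates 1, 2 and 3. Against a floor of 3 reads over the control group this was at least 613-fold higher. Slc3a1 and Slc7a9, both chains of the cystine and dibasic amino acid transporter, rose together. Slc3a1 was at 0.085, 0.571 and 0.132 FPKM in control and 49.1, 92.6 and 53.6 in differentiation libraries, and Slc7a9 at 0.409, 0.45 and 0.223 versus 10.8, 11.3 and 11.8. Slc15a1, Slc3a1 and Slc7a9 were under 1 FPKM in every control, so the filter fixed their direction. Slc6a14, an amino acid importer, rose from 1.78, 1.6 and 1.15 to 13.9, 33.4 and 22.3 FPKM. The 3 that fell were Slc7a5, Slc1a5 and Slc7a11, which supply amino acids to growing cells, by 3.06, 1.68 and 1.10 on the log2 scale. Slc16a1, the butyrate and lactate carrier, rose from 45.1, 30.1 and 32.3 to 60.4, 105 and 108 FPKM (1.30 ± 0.26).

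**Figure D3:**
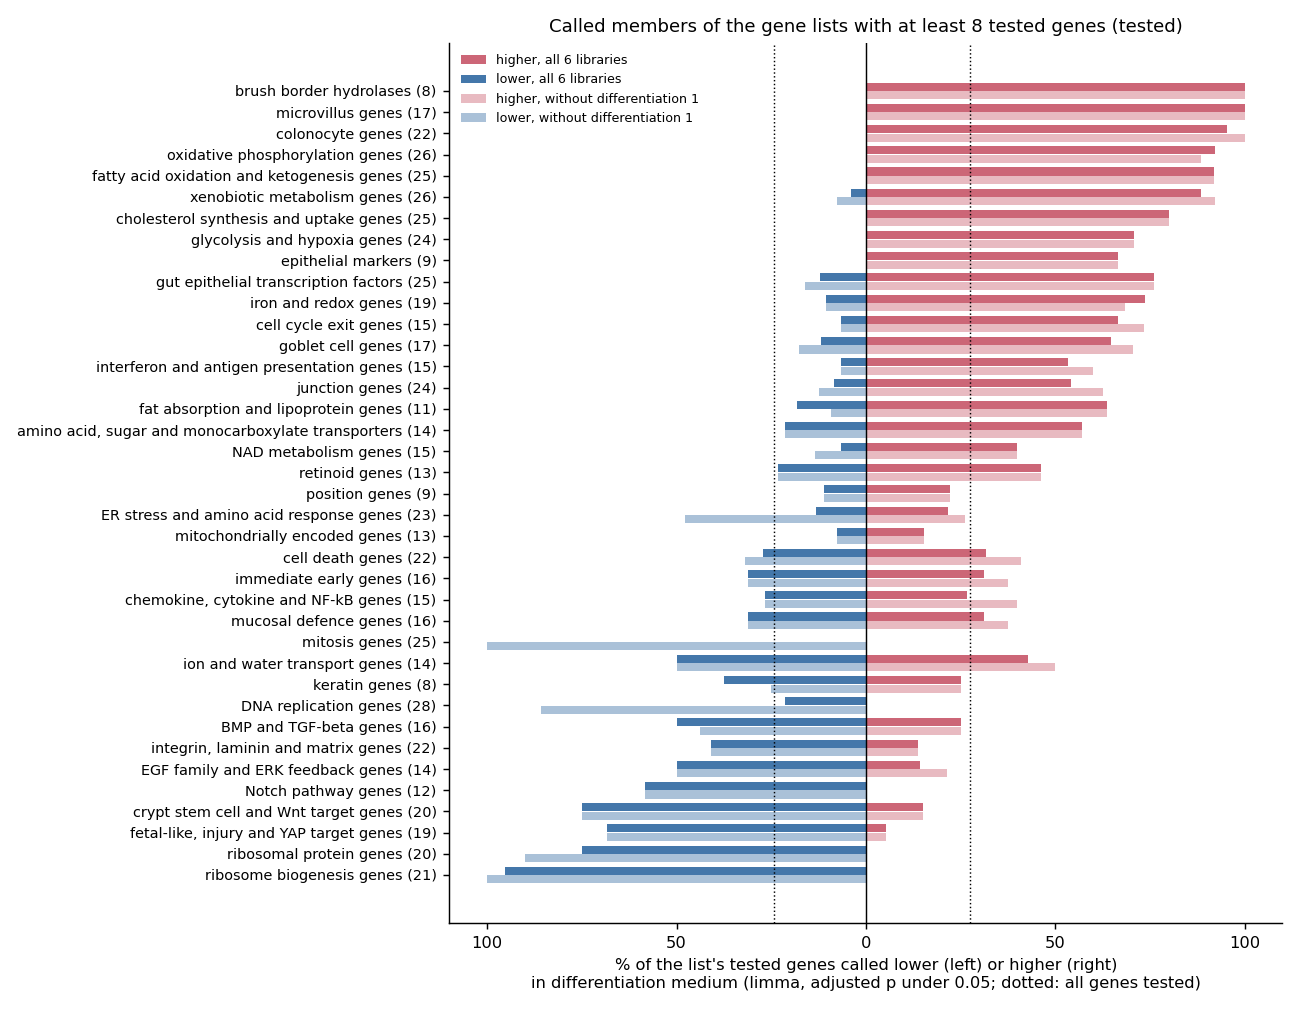
Members of each gene list with at least 8 tested genes that were called lower (left) or higher (right) in differentiation medium, as a percent of the members tested, with all 6 libraries (dark bars) and without differentiation replicate 1 (pale bars). Dotted lines give the 24.2% and 27.4% of all genes tested. Brush border hydrolases and microvillus genes are called higher in every tested member, ribosome biogenesis genes lower in 20 of 21, and mitosis genes in 0 of 25 with all libraries and 25 of 25 without replicate 1.

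Genes of fatty acid oxidation and ketogenesis rose in 23 of 25 tested members and fell in 0 (26 listed, 1 under 1 FPKM in every control, 23 and 0 without differentiation replicate 1, 24 and 0 without control replicate 1, 19 and 0 on summed reads), with a median log2 fold change of 0.87. Slc25a20, which carries acylcarnitines into mitochondria, was at 10.9, 6.44 and 5.21 FPKM in control and 30.8, 45.5 and 41.6 in differentiation libraries, a log2 fold change of 2.28 ± 0.26 (SE, adjusted p = 0.00132). Its groups were separate, with control replicate 1 the highest control and differentiation replicate 1 the lowest of the others. Angptl4, a target of fatty acid receptors, was not called, at 0.618, 1.93 and 1.87 versus 2.62, 4.89 and 2.55 FPKM, and neither was Bdh1 (log2 fold change 0.41 (adjusted p = 0.0568)).

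Genes for fat absorption were mixed. Of 11 tested 7 rose and 2 fell (17 listed, 3 under 1 FPKM in every control, 7 and 1 without differentiation replicate 1, 7 and 2 without control replicate 1, 5 and 3 on summed reads), with a median of 0.89. Apoa1, the main protein of high density lipoprotein, was at 0.104, 0.0749 and 0 FPKM in control and 46, 13.1 and 7.8 in differentiation libraries. Replicate 1 was the highest here, several times above the other differentiation libraries, unlike the colonocyte genes. Apoc3, another apolipoprotein and outside the list, had 0 control reads and 189 differentiation reads, at least 72.5-fold higher against 3 reads over the group. It entered the test through the differentiation libraries alone, so its direction was fixed by the filter. Dgat1, the last enzyme of triglyceride synthesis, rose from 6.69, 6.65 and 6.71 to 20.6, 31.3 and 29.1 FPKM. Plin2, a coat protein of lipid droplets, fell from 29.7, 63.2 and 60 to 21.3, 26.8 and 25.9 FPKM, with the lowest control near the highest differentiation library (log2 fold change -0.95 ± 0.29 SE, adjusted p = 0.0307), and without replicate 1 its adjusted p was 0.0635.

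Cholesterol synthesis and uptake genes rose in 20 of 25 tested members and fell in 0 (20 and 0 without differentiation replicate 1, 22 and 0 without control replicate 1, 17 and 0 on summed reads). Hmgcs1, which makes HMG-CoA for the pathway, is shown with a match to the sterol regulatory element in its promoter (RefSeq, GRCm38.p6, chr13:119690189-119690247, plus strand), where the capitals mark TCACNCCAC at -137 to -129 from the annotated start.
Hmgcs1: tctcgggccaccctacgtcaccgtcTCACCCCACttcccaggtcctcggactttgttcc

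Searched on both strands, TCACNCCAC was found for 1 of 17 genes of this list with a promoter (5.88%), Hmgcs1. It was found for 1.44% of all genes with a promoter and 1.47% of those tested. Hmgcs1 was at 66.5, 47.8 and 47.5 FPKM in control and 125, 156 and 155 in differentiation libraries, a log2 fold change of 1.43 ± 0.17 (SE, adjusted p = 0.00147). Control replicate 1 lay above the other controls for Hmgcs1 and below the differentiation libraries, and it was the highest control for 23 of 25 members, by a median of 0.69 (log2). Insig1, the sterol sensor that holds back the pathway, rose most, from 41.2, 24.1 and 26.1 to 148, 271 and 236 FPKM.

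The cholesterol response differed between colon regions. The median log2 fold change of the list was 1.11 in proximal organoids, -0.17 in mid and 0.034 in distal organoids. The log2 fold change was higher in proximal than in both mid and distal organoids for 15 of 25 members and lower for 0 (limma interaction terms, both with adjusted p under 0.05), and for 14 without differentiation replicate 1. Over all genes tested, the log2 fold change was higher in proximal organoids than in both others for 346 and lower for 293, 3.01% and 2.55%, where a higher value can be a larger rise or a smaller fall. Without differentiation replicate 1 these were 402 and 255 genes, 3.5% and 2.22%. The region terms share the proximal libraries, so the comparison with mid and that with distal organoids are not independent of each other. Genes were admitted by their level in the proximal libraries alone. A gene expressed only in mid or distal organoids was therefore not counted, and the balance of higher and lower genes depends on this filter. Leaving out control replicate 2 or 3 lowered the counts to 174 and 152, and to 200 and 163.

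For Sqle, an oxygenase of the pathway, the difference in response was 1.19 ± 0.24 (SE, adjusted p = 0.00581) against mid and 0.99 ± 0.24 (SE, adjusted p = 0.0206) against distal organoids. Sqle was at 45, 27.6 and 25 FPKM in control and 76.2, 93.7 and 82.7 in differentiation libraries of proximal organoids. Mid organoids were at 52, 45.2 and 39.6 versus 51.9, 52.5 and 52.1 FPKM, and distal organoids at 39.1, 37.9 and 35.1 versus 54.3, 48 and 47.1. Control and differentiation libraries of Sqle were separate in proximal and distal organoids, and in mid organoids control replicate 1 lay among the differentiation libraries. Insig1 was not called between regions, with log2 fold changes of 2.80, 1.57 versus 2.40 in proximal, mid and distal organoids.

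**Figure D4:**
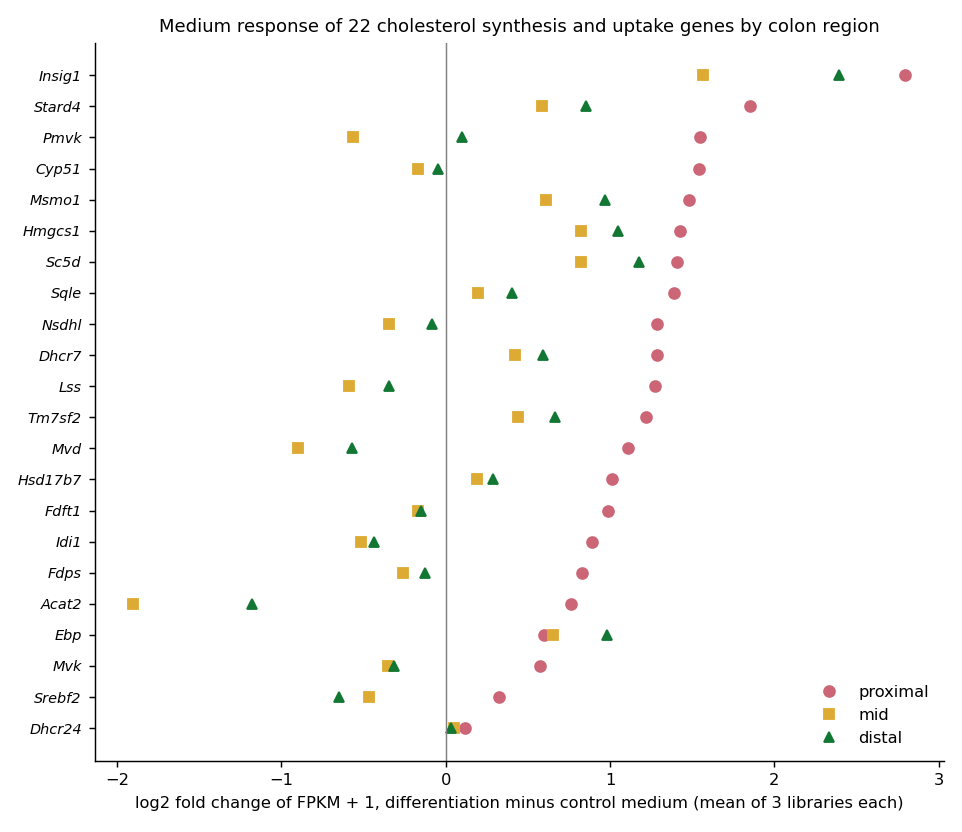
Log2 fold change of 22 of the 25 cholesterol synthesis and uptake genes between differentiation and control medium in proximal, mid and distal organoids, on the horizontal axis. Each row is a gene, and circles, squares and triangles are proximal, mid and distal organoids with 3 libraries per medium. Most proximal symbols lie to the right of 0 and of the other regions, with medians over all 25 of 1.11, -0.17 and 0.034.

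Nuclear genes of oxidative phosphorylation rose by small amounts. Of 26 tested 24 rose and 0 fell (23 and 0 without differentiation replicate 1, 25 and 0 without control replicate 1, 13 and 0 on summed reads or by voom, 15 and 0 without control replicate 2), with a median log2 fold change of 0.73. Ppargc1a, the coactivator that drives mitochondrial genes, was at 1.09, 0.498 and 0.344 FPKM in control and 2.36, 3.15 and 3.57 in differentiation libraries, a log2 fold change of 1.31 ± 0.21 (SE, adjusted p = 0.00364). Cox8a, a subunit of cytochrome oxidase, rose from 266, 212 and 194 to 429.9, 519 and 464 FPKM, and Cycs, cytochrome c, from 22.5, 17.9 and 15.8 to 38.7, 40.1 and 38.9. Control replicate 1 was the highest control for 26 of 26 members and stayed below the differentiation libraries in these 3 genes.

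Of 13 mitochondrially encoded genes 2 rose and 1 fell (2 and 1 without differentiation replicate 1, 2 and 0 without control replicate 1, 0 and 1 on summed reads, 0 and 0 with no filter). mt-Co1 was at 6480, 5923 and 6174 FPKM in control and 8647, 11930 and 12530 in differentiation libraries (log2 fold change 0.82 ± 0.18 SE, adjusted p = 0.0106), and mt-Nd3 at 78.2, 52 and 46.7 versus 43.8, 33.7 and 35 (log2 fold change -0.61 ± 0.21 SE, adjusted p = 0.0472). The medians of the list were 0.35 in proximal, 1.5 in mid and 1.51 in distal organoids, and 4 members had a lower log2 fold change in proximal than in both other organoids (3 without differentiation replicate 1). Several of these genes have near-identical nuclear copies that can share reads, and their values are uncertain. Single libraries of mt-Co2, mt-Co3 and mt-Atp6 differed several times from their group.

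Ribosomal protein genes fell slightly. Of 20 tested 0 rose and 15 fell (0 and 18 without differentiation replicate 1, 0 and 10 without control replicate 1, 0 and 20 on summed reads, 0 and 2 without control replicate 2 or control replicate 3, 0 and 4 without differentiation replicate 2, 0 and 1 without differentiation replicate 3, 0 and 5 with no filter), with a median of -0.46, so the count rests on single libraries. Rps2 was at 794, 806 and 733 FPKM in control and 629, 354 and 360.3 in differentiation libraries (log2 fold change -0.85 ± 0.23 SE, adjusted p = 0.0222), and Rplp0 at 1211, 1206 and 1190 versus 1167, 1055 and 994 (log2 fold change -0.17 ± 0.12 SE, adjusted p = 0.259). Rps2 was lower in all 3 differentiation libraries, and replicate 1 lay nearer the controls. The medians in mid and distal organoids were -1.38 and -1.24. The response was smaller in size in proximal organoids for 10 of 20 members, and for 3 without differentiation replicate 1. Processed copies of these genes can take their reads.

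**Figure D5:**
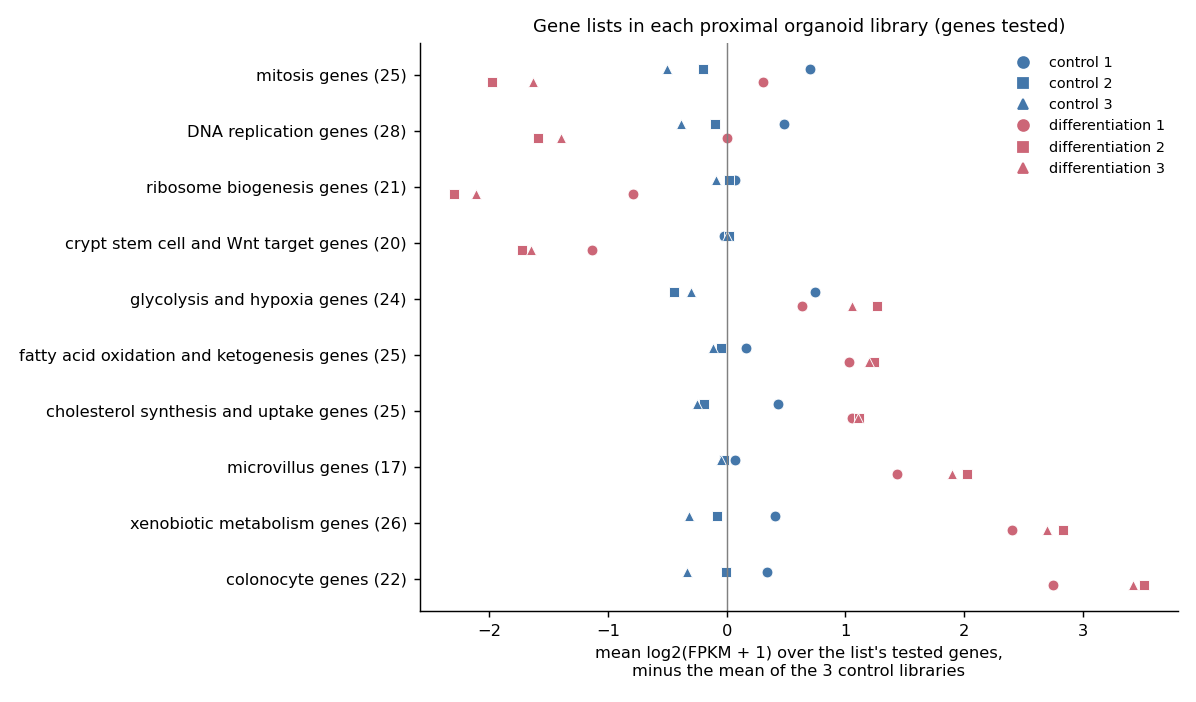
Mean log2(FPKM + 1) of 10 gene lists in each proximal library, minus the mean of the 3 controls. Circles, squares and triangles are replicates 1, 2 and 3, with control libraries in blue and differentiation libraries in red. Colonocyte, microvillus and cholesterol genes are higher in all 3 differentiation libraries, while replication and mitosis genes are low in replicates 2 and 3 alone and control replicate 1 lies above the other controls.

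Goblet cell genes rose in 11 of 17 tested members and fell in 2 (21 listed, 1 under 1 FPKM in every control, 1 under 1 FPKM in every differentiation library, 12 and 3 without differentiation replicate 1, 10 and 2 without control replicate 1, 11 and 4 on summed reads, 10 and 4 by voom), with a median of 1.20. Muc2, the gel-forming mucin of the colon, was at 7, 1.55 and 2.52 FPKM in control and 20.1, 27.3 and 26.9 in differentiation libraries. Control replicate 1 was the highest control for Muc2 and stayed under the lowest differentiation library, for a log2 fold change of 2.62 ± 0.40 (SE, adjusted p = 0.00316). Fcgbp, a mucus protein that binds Muc2, rose from 15, 6.73 and 7.65 to 183, 243 and 296 FPKM. Tff3, the trefoil peptide secreted with mucus, rose from 91.1, 27.7 and 36.1 to 462, 527 and 668 FPKM. Atoh1, which sets the secretory fate, rose from 0.91, 0.523 and 0.282 to 3.86, 6.32 and 5.74 FPKM, and Spdef, which matures goblet cells, from 1.95, 0.743 and 1.3 to 4.37, 4.88 and 5.08. Replicate 1 was close to the others for Muc2, Tff3 and Spdef. The members that fell were Ang4, an antimicrobial ribonuclease, and Creb3l1, by 1.24 and 0.87 on the log2 scale.

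Other cell types were near the limit of the filter. Of 21 enteroendocrine genes 3 were tested and all 3 rose, with and without differentiation replicate 1 or control replicate 1, and 2 of them were under 1 FPKM in every control. Pyy, a hormone of colonic L cells, was at 0, 0 and 0.189 FPKM in control and 4.01, 4.3 and 4.91 in differentiation libraries. Chgb, a granule protein, was at 0.751, 0.642 and 2.53 versus 6.55, 10.7 and 7.9 FPKM, and Sct, the hormone secretin, at 0.399, 0.43 and 0.0926 versus 2.43, 1.98 and 6.38. The general marker Chga was listed at 0.0467, 0.252 and 0.173 versus 1.22, 1.65 and 0.409 FPKM and was not tested. Of 17 tuft cell genes only Ptgs1, a prostaglandin synthase, was tested, and it fell from 3.4, 2.98 and 2.74 to 0.978, 0.349 and 0.247 FPKM, while Dclk1, Gnat3 and Chat stayed at or near 0. Ptgs1 was under 1 FPKM in every differentiation library, so its direction was fixed by the filter.

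Of 14 Paneth cell and small intestine genes 5 were tested, 3 rose and 2 fell (14 listed, 1 under 1 FPKM in every control, 2 under 1 FPKM in every differentiation library, 3 and 2 without differentiation replicate 1 or control replicate 1 or on summed reads). Slc10a2, the bile acid importer of the ileum, was at 2.4, 3.5 and 2.81 FPKM in control and 50.5, 79.9 and 83.9 in differentiation libraries, a log2 fold change of 4.19 ± 0.22 (SE, adjusted p = 0.00021). Mmp7, a protease that activates defensins in Paneth cells, fell from 9.76, 12.9 and 18.2 to 0.621, 0.299 and 0.264 FPKM. The defensins Defa17, Defa24 and Defa30 were listed at 0 in all 6 libraries. Lyz1, the lysozyme of Paneth cells, stayed at 0.0509, 0.183 and 0.473 versus 0, 0 and 0 FPKM.

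Notch pathway genes fell or did not pass. Of 12 tested 0 rose and 7 fell (16 listed, 1 under 1 FPKM in every differentiation library, 0 and 7 without differentiation replicate 1, 0 and 6 without control replicate 1, 0 and 9 on summed reads), with a median of -0.50. Jag1, a Notch ligand, was at 26.1, 30.2 and 32.4 FPKM in control and 8.49, 5.66 and 6.84 in differentiation libraries, a log2 fold change of -1.94 ± 0.16 (SE, adjusted p = 0.000522). Notch2, a receptor, went from 7.51, 8.29 and 8.47 to 3.1, 1.93 and 2.35 FPKM. The groups were separate for both. Lfng, which modifies Notch receptors with sugar, went from 4.47, 5.32 and 4.34 to 0.914, 0.191 and 0.18 FPKM. Hes1, the transcriptional repressor that Notch induces, fell from 37.5, 41.7 and 40 to 22.4, 25 and 20.6 FPKM, by less than these but without overlap (log2 fold change -0.79 ± 0.11 SE, adjusted p = 0.00255). Nrarp, a feedback target, did not pass, at 2.04, 2.12 and 2.34 versus 1.8, 2.32 and 1.48 FPKM.

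Among genes of epidermal growth factor signalling 2 of 14 rose and 7 fell (18 listed, 3 and 7 without differentiation replicate 1 or control replicate 1, 2 and 10 on summed reads, 2 and 4 without control replicate 3 or differentiation replicate 3), with a median of -0.41. The receptor Egfr fell from 8.97, 18.9 and 20.3 to 5.29, 6.96 and 6.45 FPKM, with control replicate 1 well below the other controls (log2 fold change -1.17 ± 0.29 SE, adjusted p = 0.0161). Its relatives Erbb2 and Erbb3 rose, Erbb3 from 43.7, 42.9 and 47.2 to 83.1, 161 and 126 FPKM (log2 fold change 1.40 ± 0.23 SE, adjusted p = 0.00401). The ligands Areg, Btc and Ereg fell, Areg from 85.8, 74 and 73.6 to 34.4, 17.7 and 21 FPKM. Etv4 and Etv5, transcription factors induced by ERK, fell by 2.44 and 1.58 on the log2 scale. Dusp6, the phosphatase that shuts ERK off, was not called, at 52, 75.7 and 76 versus 49, 59 and 52.6 FPKM.

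Genes of bone morphogenetic protein (BMP) and TGF-beta signalling moved in both directions. Of 16 tested 4 rose and 8 fell (26 listed, 2 under 1 FPKM in every control, 4 and 7 without differentiation replicate 1 or control replicate 1, 4 and 9 on summed reads, 4 and 5 without control replicate 2 or with no filter, 4 and 4 without control replicate 3), with a median of -0.38. Id1 and Id3, direct targets of BMP, rose, Id3 from 0.431, 0.672 and 0.2 to 17.4, 17.4 and 16.1 FPKM (log2 fold change 3.66 ± 0.15 SE, adjusted p = 9.43e-05) and Id1 from 9.81, 8.22 and 6.75 to 55.9, 80.9 and 64.9. The level of Id3 was nearly equal in all 3 differentiation libraries. Id3 was under 1 FPKM in every control, so the filter fixed its direction. The ligand Bmp2 rose from 7.8, 1.59 and 2.05 to 21.9, 39.4 and 33.3 FPKM, with control replicate 1 highest of the controls. Pmepa1, a target and inhibitor of TGF-beta signalling, fell from 45.6, 71.6 and 70.2 to 1.03, 0.699 and 0.677 FPKM (log2 fold change -5.12 ± 0.20 SE, adjusted p = 9.43e-05). Tgfbr2, Tgfbr1 and Tgfb1 fell by 1.22, 0.77 and 0.83 on the log2 scale. The BMP target Bambi was not called, at 1.29, 1.29 and 1.24 versus 0.523, 1.21 and 0.711 FPKM.

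Genes of the fetal-like, injury and YAP response fell. Of 19 tested 1 rose and 13 fell (21 listed, 2 under 1 FPKM in every differentiation library, 1 and 13 without differentiation replicate 1, 1 and 15 without control replicate 1 or on summed reads), and the median was -1.31. Ccn2, a secreted protein switched on by YAP, was at 115, 304 and 288 FPKM in control and 9.61, 4.3 and 2.7 in differentiation libraries, a log2 fold change of -5.20 ± 0.49 (SE, adjusted p = 0.000781). Ccn1, its relative, fell from 18, 27.9 and 25.2 to 3.55, 3.87 and 2.37 FPKM. Clu, clusterin, a marker of revival stem cells, fell from 515, 1525 and 1497 to 62.1, 139.5 and 93.2 FPKM, and Anxa1, a regulator of inflammation and repair, from 172, 319.7 and 334 to 105, 100.2 and 114. Control replicate 1 was the lowest control for 18 of 19 members, by a median of -0.57 (log2) against the other controls. Ly6a, known as Sca-1, was not called and stayed abundant, at 704, 956 and 1043 versus 672, 716 and 680.2 FPKM (log2 fold change -0.37 ± 0.17 SE, adjusted p = 0.107). The list member that rose was Emp1, which is also a colonocyte gene.

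Of 22 integrin, laminin and matrix genes tested 3 rose and 9 fell (27 listed, 1 under 1 FPKM in every differentiation library, 3 and 9 without differentiation replicate 1, 3 and 11 without control replicate 1, 2 and 13 on summed reads, 2 and 14 by voom), with a median of -0.37. Fn1, fibronectin, was at 38.9, 95.6 and 130.3 FPKM in control and 0.356, 5.72 and 2.49 in differentiation libraries (log2 fold change -4.65 ± 0.65 SE, adjusted p = 0.00241), with replicate 1 lowest. Thbs1, thrombospondin, fell from 84.5, 194 and 194 to 17, 10.9 and 11.8 FPKM. The collagen receptor Itga2 fell from 36.1, 49.2 and 55 to 23.5, 11.2 and 14.6 FPKM, whereas Itgb4 of the hemidesmosome was not called, at 90.9, 151 and 141 versus 114, 174 and 156. Nid1, a basement membrane linker, rose from 0.945, 1.01 and 0.878 to 3.32, 11.4 and 7.06 FPKM. The laminin chain Lamb3 rose by 0.88 on the log2 scale, while Lama3 did not pass (log2 fold change 0.087, adjusted p = 0.833). On summed reads Lamb3 no longer passed.

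Of 8 keratin genes 2 rose and 3 fell (12 listed, 1 under 1 FPKM in every differentiation library, 2 and 2 without differentiation replicate 1, 2 and 3 without control replicate 1, 2 and 5 on summed reads or by voom, 2 and 1 without control replicate 2 or control replicate 3 or differentiation replicate 2 or differentiation replicate 3, 1 and 1 with no filter). With 8 genes tested, the keratin counts do not set this list apart from the 27.4% and 24.2% of all genes tested. Krt14, a basal keratin, fell from 2.78, 13 and 15.9 to 0.24, 0.227 and 0.0641 FPKM (log2 fold change -3.04 ± 0.53 SE, adjusted p = 0.00487), and Krt7, a simple epithelial keratin, from 328, 720.2 and 669 to 264, 289 and 269, losing its call without differentiation replicate 1 (adjusted p = 0.053). Krt8 rose from 2172, 2612 and 2449 to 3585, 4412 and 4400 FPKM, and Krt19 was not called at 2012, 2993 and 2950 versus 2973, 2823 and 3195. Of 24 junction genes 13 rose and 2 fell (26 listed, 15 and 3 without differentiation replicate 1, 13 and 3 without control replicate 1, 9 and 5 on summed reads or by voom), with a median of 0.44. Cldn2, a claudin that forms water and sodium pores, fell from 22.1, 20 and 18.3 to 3.52, 0.312 and 0.288 FPKM (log2 fold change -3.42 ± 0.47 SE, adjusted p = 0.00227). Cldn4, a sealing claudin, fell from 301, 348 and 371 to 107, 206 and 163 FPKM. Cldn23 rose from 14.3, 10.6 and 10.3 to 30, 54 and 44.5 FPKM, and Cldn15 from 27.2, 9 and 7.65 to 44.1, 54.7 and 51.7, where control replicate 1 was far above the other controls. Cdh17, the liver-intestine cadherin, rose from 176, 149 and 154 to 425, 699 and 613 FPKM.

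The title of the series names nicotinic acid, a form of vitamin B3 from which cells make NAD. Of 15 NAD metabolism genes tested 6 rose and 1 fell (26 listed, 1 under 1 FPKM in every control, 1 under 1 FPKM in every differentiation library, 6 and 2 without differentiation replicate 1, 7 and 0 without control replicate 1, 6 and 5 on summed reads or by voom, 7 and 3 in the fit over all 18 libraries), with a median of 0.40. Naprt, the enzyme that turns nicotinic acid into an NAD precursor (ENSMUSG00000022574, chromosome 15, 75762805 to 75766330, mm39), was at 4.06, 3.69 and 2.29 FPKM in control and 18.5, 37.8 and 27.3 in differentiation libraries, a log2 fold change of 2.70 ± 0.28 (SE, adjusted p = 0.000945). Nadsyn1, the last enzyme of that route, rose from 8.73, 7.63 and 6.27 to 16.1, 19.8 and 18.1 FPKM. Nampt, which recycles nicotinamide, rose from 20.8, 10.4 and 10.6 to 29, 43.6 and 40.3 FPKM. All 3 enzymes were higher in each differentiation library than in any control. Slc5a8, which imports nicotinate and butyrate with sodium, stayed low and rose from 1.05, 0.564 and 0.549 to 3.27, 4.69 and 3.58 FPKM. Cd38, which consumes NAD, rose from 14.8, 8.3 and 8.6 to 52.2, 83.3 and 84.6 FPKM. Parp1, a DNA repair enzyme that uses NAD, fell mainly in replicates 2 and 3, at 15.5, 13.8 and 12.4 versus 10.9, 2.38 and 2.85 FPKM (log2 fold change -1.46 ± 0.46 SE, adjusted p = 0.0337). Parp1 was called with all 6 libraries and is 1 of the genes whose replicate 1 stayed near the controls. Nmrk1, the nicotinamide riboside kinase, was not called, at 0.889, 0.439 and 0.713 versus 1.21, 1.34 and 1.08 FPKM. The receptor Hcar2 stayed near 0, at 0.167, 0 and 0.031 versus 0, 0.0414 and 0 FPKM, and was not tested.

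Retinoid genes moved in both directions, with 6 of 13 that rose and 3 that fell (21 listed, 2 under 1 FPKM in every control, 1 under 1 FPKM in every differentiation library, 6 and 3 without differentiation replicate 1 or control replicate 1, 5 and 5 on summed reads or by voom). Stra6, the membrane receptor for retinol carried in plasma, fell from 20, 33 and 30.8 to 0.0724, 0 and 0.00967 FPKM (log2 fold change -4.79 ± 0.19 SE, adjusted p = 9.43e-05), close to 0. Aldh1a3, which makes retinoic acid, fell from 46.6, 75 and 94.4 to 2.71, 7.49 and 4.81 FPKM, whereas Aldh1a1 of the same function rose from 28.6, 31.8 and 22.8 to 217, 390.2 and 367. Rbp2, the retinol carrier of absorptive cells, rose from 0.267, 0.337 and 0.807 to 16.2, 20.9 and 15.7 FPKM (log2 fold change 3.67 ± 0.18 SE, adjusted p = 0.000192). Stra6 was under 1 FPKM in every differentiation library and Rbp2 in every control, so the filter fixed the direction of both. The 2 aldehyde dehydrogenases thus exchanged rank, Aldh1a3 being the higher in all 3 controls and Aldh1a1 in all 3 differentiation libraries. For the 7 members that moved by at least 1 (log2) in replicates 2 and 3, the median position of differentiation replicate 1 was 95.9% of the way. It ranged from 62.6% to 169%.

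Xenobiotic metabolism genes rose in 23 of 26 tested members and fell in 1 (33 listed, 3 under 1 FPKM in every control, 24 and 2 without differentiation replicate 1, 23 and 1 without control replicate 1 or on summed reads), with a median log2 fold change of 2.57. Cyp3a13, a cytochrome P450, was at 5.03, 8.8 and 7.64 FPKM in control and 60.2, 104 and 89.4 in differentiation libraries (log2 fold change 3.38 ± 0.26 SE, adjusted p = 0.00044). Abcb1a, the drug efflux pump P-glycoprotein, rose from 40.2, 32.2 and 29.9 to 252, 342 and 351 FPKM. Sult1b1, a sulfotransferase, rose from 8.33, 4.11 and 2.36 to 54.5, 90.9 and 91.2 FPKM. Replicate 1 was the lowest differentiation library in all 3 and stayed far above the controls. Abcg2, another efflux pump, rose from 0.166, 0.119 and 0.0806 to 4.93, 9.1 and 6.79 FPKM. Ces2a, Ces2c and Ces2e, carboxylesterases with near-identical copies between which reads could be split, rose by 5.44, 5.17 and 3.93. Ahr, the receptor for dioxin and microbial indoles, fell by 0.80 on the log2 scale, at 7.45, 8.4 and 9.44 versus 3.92, 4.58 and 4.76 FPKM. Nqo1, a quinone reductase, rose from 21.4, 7.36 and 9.12 to 29.7, 62.2 and 49.8 FPKM, with control replicate 1 nearest to the differentiation libraries.

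Defence genes were mixed, with 5 of 16 that rose and 5 that fell (25 listed, 3 under 1 FPKM in every control, 3 under 1 FPKM in every differentiation library, 6 and 5 without differentiation replicate 1, 7 and 6 without control replicate 1, 5 and 6 on summed reads). Both counts lay near the shares of all genes tested, 27.4% and 24.2%, and do not set this list apart. Pigr, which carries antibodies across the epithelium, rose from 45.4, 28.4 and 21.6 to 101, 95 and 90.2 FPKM (log2 fold change 1.62 ± 0.25 SE, adjusted p = 0.00327). Nox1, the colonic NADPH oxidase, fell from 5.62, 1.23 and 1.86 to 0.182, 0 and 0 FPKM (log2 fold change -1.72 ± 0.39 SE, adjusted p = 0.0112), and it was listed at 0 in differentiation replicates 2 and 3. Duox2, another oxidase, and Dmbt1, a scavenger receptor, were not called. Dmbt1 was at 37.1, 6.56 and 4.62 versus 25.2, 35 and 24.4 FPKM, with control replicate 1 above every differentiation library.

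Interferon and antigen presentation genes rose in 8 of 15 tested members and fell in 1 (28 listed, 2 under 1 FPKM in every control, 9 and 1 without differentiation replicate 1, 6 and 3 without control replicate 1, 7 and 2 on summed reads, 7 and 3 by voom), with a median of 0.56. Irf7, a master regulator of the interferon response, rose from 2.2, 3.76 and 2.88 to 9.16, 27.6 and 20.8 FPKM (log2 fold change 2.25 ± 0.38 SE, adjusted p = 0.00413), with replicate 1 between the controls and the others. H2-K1, a class I histocompatibility chain, rose from 174, 189.7 and 194 to 315, 586 and 513 FPKM, and B2m, its partner, from 83.9, 97.3 and 89.3 to 132, 282 and 216. H2-K1 belongs to a family of near-identical genes. Isg15 was not called, at 0.549, 1.78 and 2.55 versus 0.686, 2.04 and 1.68 FPKM. The class II genes H2-Aa and H2-Ab1 stayed at or near 0. Bst2, an antiviral membrane protein, fell by 1.25 on the log2 scale.

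Of 15 chemokine, cytokine and NF-kB genes 4 rose and 4 fell (23 listed, 1 under 1 FPKM in every control, 1 under 1 FPKM in every differentiation library, 6 and 4 without differentiation replicate 1, 3 and 6 without control replicate 1, 2 and 7 on summed reads or by voom, 2 and 4 without control replicate 2). These counts, and those of the immediate early genes below, lay near the 27.4% and 24.2% of all genes tested and do not set the lists apart. Il33, an alarmin, fell from 24.8, 26.4 and 24.8 to 6.81, 2.63 and 3.12 FPKM (log2 fold change -2.43 ± 0.28 SE, adjusted p = 0.00128). Tnf fell from 8.32, 10.4 and 10.4 to 3.46, 2.39 and 2.27 FPKM, and Tnfrsf11b, a decoy receptor, from 28.5, 46.6 and 55.6 to 3.63, 5.47 and 5.92. Il18 and Ccl20 were not called. Of 16 immediate early genes 5 rose and 5 fell (20 listed, 1 under 1 FPKM in every differentiation library, 6 and 5 without differentiation replicate 1, 5 and 3 without control replicate 1, 3 and 8 on summed reads, 3 and 3 without control replicate 2 or differentiation replicate 3, 4 and 3 without control replicate 3, 3 and 6 without differentiation replicate 2, 4 and 8 by voom, 3 and 4 with no filter). Ier3, a stress response gene, fell from 134, 197 and 200.4 to 39.6, 49.5 and 47.5 FPKM (log2 fold change -1.92 ± 0.19 SE, adjusted p = 0.000801), and Atf3 rose from 8.6, 2 and 1.94 to 14.2, 11.2 and 11.3, with an adjusted p of 0.0245 that was 0.0514 without differentiation replicate 1.

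Genes of endoplasmic reticulum stress and the amino acid response depended on differentiation replicate 1. Of 23 tested 5 rose and 3 fell (24 listed, 6 and 11 without differentiation replicate 1, 6 and 3 without control replicate 1, 3 and 8 on summed reads or by voom). Hspa5, the main chaperone of the endoplasmic reticulum, was at 95.4, 114 and 111 FPKM in control and 133, 64.2 and 77.8 in differentiation libraries. Replicate 1 was above every control and replicates 2 and 3 were below every control, so the log2 fold change was -0.29 (adjusted p = 0.385) with it and -0.59 (adjusted p = 0.00934) without it. Asns, asparagine synthetase, fell in all 3, from 108, 65.5 and 59.1 to 32, 16.4 and 17.4 FPKM (log2 fold change -1.78 ± 0.32 SE, adjusted p = 0.00502), and Atf5 from 35.5, 29.1 and 31.8 to 11, 7.57 and 5.46. Edem1, which marks misfolded proteins for removal, rose from 10.8, 10.2 and 10.5 to 23.2, 32 and 30.6 FPKM. Atf4, the transcription factor upstream of Asns, was not called, with 167, 92.9 and 91 versus 85.6, 75.8 and 73.7 FPKM.

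The count of glycolysis and hypoxia genes rested on single libraries. With all libraries 17 of 24 rose and 0 fell (26 listed, 17 and 0 without differentiation replicate 1, 20 and 0 without control replicate 1, 8 and 1 on summed reads, 5 and 1 without control replicate 2, 5 and 0 without control replicate 3 or differentiation replicate 2 or differentiation replicate 3, 6 and 0 with no filter), with a median of 0.98. At an unadjusted p under 0.05, and by voom, 1 was lower. Control replicate 1 was the highest control for 24 of 24 members, by a median of 1.01 (log2), and the differentiation libraries lay above every control for 12 members and below for 1. Ndrg1, a hypoxia-induced gene, was at 64.2, 8.1 and 11.6 FPKM in control and 84.5, 90 and 74.2 in differentiation libraries. Control replicate 1 lay just below the differentiation libraries and the other controls far below (log2 fold change 2.10 ± 0.68 SE, adjusted p = 0.0386), and on summed reads Ndrg1 was no longer called. Car9, a carbonic anhydrase induced by hypoxia, was at 102, 42.4 and 44.7 versus 92.5, 209 and 171 FPKM. Ldha, lactate dehydrogenase, was at 529.8, 302 and 303 versus 909.9, 1201 and 1120 FPKM without overlap (log2 fold change 1.55 ± 0.25 SE, adjusted p = 0.00353). Vegfa, the angiogenic factor, and Hk2, a hexokinase, were not called, Vegfa at 70.2, 28.9 and 31.4 versus 36.9, 70.8 and 56.5 FPKM.

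Iron and redox genes rose in 14 of 19 tested members and fell in 2 (21 listed, 13 and 2 without differentiation replicate 1, 15 and 1 without control replicate 1, 11 and 2 on summed reads, 10 and 0 without differentiation replicate 3), with a median of 1.01. Slc40a1, the iron exporter ferroportin, rose from 7.71, 5.07 and 5.56 to 30.7, 59.8 and 52.9 FPKM (log2 fold change 2.74 ± 0.27 SE, adjusted p = 0.000801). Srxn1, which restores oxidised peroxiredoxins, rose from 16.8, 13.6 and 12.9 to 50.9, 95.7 and 80.5 FPKM, and Cat, catalase, from 26.3, 27.4 and 30.4 to 61.5, 95.1 and 86.7. Gpx2, the gastrointestinal glutathione peroxidase, fell from 238, 161 and 164 to 104, 23.6 and 30.2 FPKM (log2 fold change -2.10 ± 0.52 SE, adjusted p = 0.0155), with replicate 1 between the groups. Tfrc, the transferrin receptor, and Hmox1, which breaks down heme, were not called.

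Of 22 cell death genes 7 rose and 6 fell (26 listed, 1 under 1 FPKM in every control, 9 and 7 without differentiation replicate 1, 7 and 5 without control replicate 1, 4 and 8 on summed reads or by voom). Both counts lay near the 27.4% and 24.2% of all genes tested and do not set this list apart. Casp1, an inflammatory caspase, rose from 14.8, 13.5 and 13.6 to 43, 49.7 and 58.1 FPKM (log2 fold change 1.77 ± 0.13 SE, adjusted p = 0.00044). Bcl2l1, which protects from death, fell from 38, 57.6 and 58.2 to 23.9, 26.8 and 23.3 FPKM, and Bid, which promotes it, from 7.9, 10.6 and 10.1 to 4.28, 1.6 and 2.24. The groups were separate for all 3.

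Position genes mark the place along the gut. Of 9 tested 2 rose and 1 fell (19 listed, 2 and 1 without differentiation replicate 1, 2 and 0 without control replicate 1, 2 and 2 on summed reads). With 9 genes tested, these counts do not set the list apart from the 27.4% and 24.2% of all genes tested. Osr2, a zinc finger transcription factor, rose from 14.4, 10 and 7.21 to 38.3, 48.1 and 41.8 FPKM (log2 fold change 1.96 ± 0.23 SE, adjusted p = 0.00139). Hoxb6 was at 46, 32.7 and 35 versus 40.2, 39.3 and 33.4 FPKM, and Hoxb4 fell from 8.52, 5.55 and 5.15 to 3.99, 2.3 and 1.71 (log2 fold change -1.03 ± 0.27 SE, adjusted p = 0.0178). Hoxa10, Hoxa11, Hoxa13, Hoxb13, Hoxd10, Hoxd12 and Hoxd13, of the posterior clusters, were listed at 0 in all 6 libraries.

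Of 408 long non-coding RNAs tested 122 rose and 74 fell (132 and 85 without differentiation replicate 1). Over all genes tested the shares were 27.4% and 24.2%, and the rising count lay near the former. Whether these counts depend on the scale was not tested. Gm11695 had the largest rise among those with a mean of at least 5 FPKM in 1 group, from 2.69, 1.48 and 1.17 to 24.3, 46.9 and 42.9 FPKM (log2 fold change 3.79 ± 0.30 SE, adjusted p = 0.000474), and Gm28512 next, from 3.8, 1.58 and 0.863 to 27.1, 40.1 and 38. Among those that fell, AI506816 had the largest change, from 43.2, 32.1 and 32.7 to 21.1, 3.28 and 4.71 FPKM (log2 fold change -2.17 ± 0.58 SE, adjusted p = 0.0193), and Snhg17, host of small nucleolar RNAs, fell from 5.65, 5.86 and 5.67 to 1.77, 0.405 and 0.622. For AI506816 replicate 1 lay between the groups. The protocol names both an unstranded and a stranded kit, so reads of overlapping or antisense genes may be shared.

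Some abundant genes held their level. Of 277 genes with a mean of at least 100 FPKM in both groups, 47 had a 95% interval of the log2 fold change within 0.5 of 0, and the most abundant were Rn18s-rs5, Eef2, Rplp0, Actb, Tpt1 and Actg1. Eef2, a translation elongation factor, was at 1512, 1601 and 1586 FPKM in control and 1409, 1557 and 1426 in differentiation libraries, with an interval of -0.37 to 0.18. Actb, cytoplasmic actin, was at 916, 946 and 973 versus 1023, 1021 and 1034 FPKM, with an interval of -0.13 to 0.37. Rn18s-rs5 is a copy of ribosomal RNA in a polyA library, and its reads are uncertain.

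The largest regional differences in response, by the smaller of the differences from mid and from distal organoids, included transporters and hormones of absorptive cells. Slc13a1, a sulfate importer, rose in proximal organoids from 0.383, 0.455 and 0.185 to 11.1, 29.6 and 23.9 FPKM. In mid organoids it was at 0.104, 0.112 and 0.119 versus 0.314, 0.414 and 0.188 FPKM, and in distal organoids it was at or near 0. The difference in response was 3.75 ± 0.33 (SE, adjusted p = 1.19e-05) against mid and 3.97 ± 0.33 (SE, adjusted p = 7.42e-06) against distal organoids. Slc51a, a subunit of the basolateral bile acid exporter, rose from 0.402, 0.463 and 0.28 to 29.6, 29.6 and 23.3 FPKM in proximal organoids, against 0.148, 0.0479 and 0.016 versus 1.58, 1 and 1.38 in mid and 0.0462, 0.0149 and 0.07 versus 0.419, 0.794 and 0.52 in distal organoids. Its 3 differentiation libraries were alike, replicate 1 included. Guca2b, the hormone uroguanylin, rose from 4.36, 3.83 and 1.58 to 26.9, 62.2 and 39.7 FPKM, against 6.05, 6.81 and 8.6 versus 7.76, 4.47 and 6.55 in mid and 3.74, 1.81 and 3.02 versus 5.45, 1.6 and 3.49 in distal organoids. Cyp4b1, a cytochrome P450, Prl2a1, a prolactin family hormone, and Defb37, a defensin, made up the rest of the 6 highest. Slc13a1, Slc51a, Cyp4b1 and Prl2a1 were under 1 FPKM in every proximal control and entered the test through the proximal differentiation libraries alone. The direction of their proximal response was thus fixed by the filter.

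In the other direction St6gal1, which caps glycans with sialic acid, fell in proximal organoids from 6.03, 12.5 and 14.3 to 1.79, 1.33 and 0.986 FPKM. Mid organoids were at 1.97, 1.4 and 3.4 versus 4.03, 2.54 and 3.27 FPKM and distal organoids at 0.681, 0.476 and 2.99 versus 2.66, 1.96 and 2.31. Saa1, an acute phase protein, rose in proximal organoids from 0.0519, 0.205 and 0.0241 to 3.16, 15.9 and 6.69 FPKM, whereas it went from 4.25, 9.81 and 5.29 to 389, 266 and 431 in mid and from 1.41, 2.72 and 6.55 to 664, 267 and 252 in distal organoids. Ggh, a folate hydrolase, did not pass in proximal organoids, at 6.84, 13.2 and 12.3 versus 6.9, 16.5 and 14.5 FPKM, while it went from 26.5, 31.6 and 30.4 to 362, 310.1 and 374 in mid and from 22, 19.3 and 31.4 to 247, 249 and 184 in distal organoids. Ephb6, Slc20a1 and St3gal3 made up the rest of the 6 lowest. Saa1 entered the test through the proximal differentiation libraries alone and Ephb6 through the proximal controls alone, so the filter fixed the direction of their proximal response. All 12 genes kept the call of a regional difference without differentiation replicate 1.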

How the data were processed

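The deposited table holds FPKM values that the authors computed per gene for 18 libraries, and the 6 proximal columns carried the main comparison. Reads were aligned with HISAT2 2.0.5 to mm39 and counted with featureCounts 1.5.0-p3, per the submitters' processing notes. FPKM times gene length fell on whole multiples within 0.001, and these recovered reads gave the depth and an alternative count scale. Another 6 columns hold the authors' group means and were not used, and 0 value columns were unmapped.

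Genes with at least 1 FPKM in at least 3 of the 6 libraries were tested on log2(FPKM + 1) with limma 3.58.1 in R 4.3.3 (moderated, with a mean-variance trend), and p-values were adjusted by Benjamini-Hochberg over all genes tested, with a threshold of 0.05. Differences between regions are interaction terms of a fit over all 18 libraries, called when the terms against mid and against distal organoids both passed with the same sign. That fit used the genes that passed the filter on the 6 proximal libraries. The scripts were checked on simulated data first. Alternatives were scaling to summed reads or by median of ratios, voom on recovered reads, a pseudocount of 0.1, a filter of 5 FPKM, no filter, a replicate block, a fit over all 18 libraries, and leaving out each library. Gene symbols that occur more than once (77) were kept as separate rows.

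Promoters are RefSeq's, GRCm38.p6. They were used for letters alone, and gene positions in the table are on mm39. Genes were named by a rule over 281 genes: the 12 highest and 12 lowest called genes, starred members and the 3 largest called changes of each of 45 gene lists, the 5 largest changes of each sign among genes whose differentiation replicate 1 lay in the control range and among genes whose 3 differentiation libraries lay close together, the 6 largest regional differences of each sign, 8 long non-coding RNAs, and 6 abundant genes with a narrow interval. Other list members were named after their values had been seen. The members and lists were chosen with earlier results of these data known. Some genes are not reported here.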

Additional observations from a re-analysis of the deposited data

Results flagged for a closer look

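Each of these 12 genes had a medium response that differed between proximal organoids and both other regions, by limma interaction terms with adjusted p under 0.05. Values are the proximal log2 fold change minus that in mid and that in distal organoids, each from 3 libraries per group. The proximal value was higher for Slc13a1 (3.75 and 3.97), Cyp4b1 (3.58 and 4.47), Prl2a1 (3.54 and 4.29), Slc51a (3.25 and 3.77), Guca2b (3.54 and 3.19) and Defb37 (2.85 and 3.27). It was lower for Ephb6 (-3.34 and -4.29), Ggh (-3.34 and -3.01), Saa1 (-2.75 and -3.55), St6gal1 (-2.70 and -2.89), Slc20a1 (-2.75 and -2.53) and St3gal3 (-2.89 and -2.47). Ggh and Slc20a1 were not called within the proximal comparison itself. Slc13a1, Cyp4b1, Prl2a1, Slc51a and Saa1 were under 1 FPKM in every proximal control, and Ephb6 in every proximal differentiation library. The filter, set on proximal libraries alone, thus fixed the direction of their proximal response. Groups of 3 libraries are too small for a test of single outlying libraries.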

How the results depend on the processing

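Scaling to summed reads gave 2085 higher and 4420 lower genes, and without differentiation replicate 1 it gave 2301 and 5322. By voom on recovered reads 4597 genes were lower, and with a filter of 5 FPKM 1794 were lower and 190 had a lower log2 fold change in proximal organoids than in both other regions, with fewer genes tested. Leaving out 1 library at a time gave 2122 to 3701 higher and 1513 to 3525 lower genes. For the regional counts the ranges were 174 to 413 higher and 152 to 319 lower log2 fold changes, lowest without control replicate 2. The cause was not tested, beyond the smaller number of genes or libraries. The other alternatives stayed within 1.5 times of the reported counts.

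Among the called of the 281 named genes 0 changed direction in the alternatives that were run. On summed reads 17 lost their call, among them Ndrg1, Car9, Xbp1 and mt-Co1, and without differentiation replicate 3, 37 did. With a replicate block 3015 genes rose and 2811 fell, 20 of 25 mitosis and 20 of 28 replication genes fell, and 8 of 24 glycolysis and hypoxia genes rose. The numbers were not taken as pairs in the main comparison, and the labels do not say that they are. Deviations of same-numbered libraries correlated at 0.162, 0.0247 and 0.191. For control replicates 1 and 3 this was the highest of their correlations, while control replicate 2 correlated best with differentiation replicate 3 (0.05). These values do not settle whether the numbers are pairs. Genes near 0 FPKM are limited by depth.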

Other observations

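Among the smaller transcription factor families of the table, 5 of 27 homeobox genes rose and 7 fell, 4 and 7 of 17 ETS genes, 4 and 6 of 15 forkhead genes, 7 and 11 of 27 HMG genes, and 5 and 8 of 23 MYB genes (limma, adjusted p under 0.05). For comparison, 27.4% of all genes tested rose and 24.2% fell, and 125 of 707 transcription factors with a family rose and 214 fell. Mir210, the gene of a hypoxia-induced microRNA, had 0 reads in the control libraries and 27 in the differentiation libraries, at least 10.4-fold higher when the control group is set to 3 reads. Mir210 entered the test through the differentiation libraries alone, so its direction was fixed by the filter.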
